A study of Mus musculus with 16 samples.

Results

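The regions described here are short stretches of H3K27me3 that lie away from genes' ends and carry no H3K4me3. They were found by merging the 4 H3K27me3 peak lists and keeping merged regions that were shorter than 5000 bp, lay more than 2500 bp from the start or end of any protein-coding gene, overlapped a peak of at least 2 of the 4 H3K27me3 lists and overlapped no peak of any of the 4 H3K4me3 lists. This left 2278 regions of 25395 merged H3K27me3 regions, which is 33.1% of the 6889 found in at least 2 lists. The regions were thus chosen by measured values, the presence of H3K27me3 peaks and the absence of H3K4me3 peaks, which are not findings.

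The lists come from CJ9 mouse embryonic stem cells, wild type (WT) or arid4b-delta, that were directed for 5 days to endoderm or to mesoderm, fixed with formaldehyde for 8 min and profiled by ChIP-seq. arid4b-delta cells carry a deletion in Arid4b, whose product is part of the Sin3 histone deacetylase complex, a corepressor. The extent of the deletion and the number of clones are not given in the labels, and neither the deletion nor the lineage of the cells was checked with these peak lists. Each combination of genotype, lineage and mark is 1 library, so nothing below is tested between groups, and exact Clopper-Pearson 95% intervals cover counting error over regions only, not variation between cultures. The H3K27me3 lists held 10326 (WT endoderm), 16660 (arid4b-delta endoderm), 6150 (WT mesoderm) and 9863 (arid4b-delta mesoderm) peaks. Read depth cannot be told from peak lists, so list length and biology cannot be told apart in any difference between lists.

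H3K27me3 is deposited on nucleosomes by Polycomb repressive complex PRC2 and goes with silent chromatin. In stem cells PRC2 is concentrated at CpG-rich promoters of developmental genes, where H3K4me3 is often present as well, a state called bivalent. H3K27me3 also occurs away from promoters, over silenced enhancers, gene-poor chromatin and the silent alleles of imprinted loci. Acetylation (H3K27ac), the mark of active enhancers and promoters, sits on the same lysine, so a single histone tail cannot carry both.

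Few of the regions overlap any annotated transcription start, and those that do are shown first because they put a sequence to a mark that was otherwise far from gene ends. Of the 2278 regions, 37 (1.62%) overlapped a window of RefSeq's promoter table (build GRCm38.p6, from 250 bases before a start to 50 after), and 14 of the 37 overlapped the window of a protein-coding gene. Among all 6889 regions in at least 2 lists, 2094 (30.4%) overlapped such a window, and among distal regions with H3K4me3 it was 21.0%. The median window in the distal regions held 6 CpG dinucleotides per 300 bases, against 21 in the windows of all regions in at least 2 lists and 7 over all 32815 windows of the table. The rule leaves out regions at coding gene ends and those with H3K4me3, so neither contrast is independent of the rule. Of the 2094 regions, 1864 overlapped the window of a protein-coding gene. The 250 bases before the start are given 5′ to 3′ on the gene's strand, with each CpG in capitals, for 4 named coding genes whose window lay wholly inside a region. Tmprss2 and Lbhd2 are those of regions in all 4 lists, and Bcl6 and Tcam1 are those with the most CpG among regions in 3 lists.
Tmprss2: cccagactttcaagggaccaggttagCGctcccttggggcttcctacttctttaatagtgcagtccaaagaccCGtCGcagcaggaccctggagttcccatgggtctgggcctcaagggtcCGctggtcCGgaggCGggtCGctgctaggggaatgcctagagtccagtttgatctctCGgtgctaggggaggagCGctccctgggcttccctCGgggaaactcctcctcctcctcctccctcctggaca
Lbhd2: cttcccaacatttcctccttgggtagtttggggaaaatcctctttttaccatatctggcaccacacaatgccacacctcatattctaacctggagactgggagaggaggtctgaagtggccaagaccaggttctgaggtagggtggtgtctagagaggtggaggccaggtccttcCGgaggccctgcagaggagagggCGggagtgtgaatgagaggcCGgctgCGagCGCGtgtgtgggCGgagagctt
Bcl6: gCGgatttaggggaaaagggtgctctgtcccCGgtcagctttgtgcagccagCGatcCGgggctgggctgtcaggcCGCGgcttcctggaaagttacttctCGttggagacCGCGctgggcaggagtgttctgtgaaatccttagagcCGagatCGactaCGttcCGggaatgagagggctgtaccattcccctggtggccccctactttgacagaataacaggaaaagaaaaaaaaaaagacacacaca
Tcam1: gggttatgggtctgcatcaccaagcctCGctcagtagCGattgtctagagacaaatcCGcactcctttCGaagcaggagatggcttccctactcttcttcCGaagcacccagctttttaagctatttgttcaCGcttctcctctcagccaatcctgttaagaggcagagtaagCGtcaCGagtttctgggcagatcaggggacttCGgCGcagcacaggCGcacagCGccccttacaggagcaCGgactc

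Tmprss2 encodes a transmembrane serine protease, and its sequence (gene 50528, chr16:97611196-97611445, minus strand, 10 CpG, 61.6% GC) precedes a start that lies inside the gene's RefSeq span, and the region is 44964 bp from the nearest coding gene end. The same holds for all 4: a gene's ends are those of its whole RefSeq span, predicted transcripts included, so an inner start can count as distal. The region there (chr16:97609646-97612211, 2566 bp) had H3K27me3 fold enrichments of 1.98 in WT endoderm, 2.21 in arid4b-delta endoderm, 2.32 in WT mesoderm and 2.09 in arid4b-delta mesoderm. A fold enrichment is the authors' own value for a peak over its control or local background, and for a region it is that of its highest peak. Lbhd2 (gene 380787, chr12:111406559-111406808, plus strand, 7 CpG) lay in a region of 2061 bp with folds of 2.41, 4.98, 1.81 and 2.07 in the same order. Bcl6, a transcriptional repressor of germinal centre B cells (gene 12053, chr16:23981284-23981533, minus strand, 13 CpG), was in 3 lists, with folds of 4.50 in WT endoderm, 2.18 in arid4b-delta endoderm and 1.71 in arid4b-delta mesoderm. Tcam1 (gene 75870, chr11:106276422-106276671, plus strand, 13 CpG) was in the same 3 lists with folds of 1.21, 1.94 and 3.22. None of these 4 regions overlapped an H3K27ac peak in any list.

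The median length of the regions was 801 bp (quartiles 486 and 1307, range 148 to 4993), and together they covered 2343052 bp. Under the same length limit the median was 1048 bp for regions near a gene end without H3K4me3 and 1981 bp for distal regions with H3K4me3. Just inside the length limit were regions near Creb3l1 (4993 bp), near Myof (4952 bp) and in Pappa (4877 bp), and just outside it were those near Peg12 (5026 bp), Hoxa13 (5062 bp) and Hrh1 (5125 bp). Just inside the distance limit were regions 2.51 kb from Pthlh, 2.51 kb from an unnamed coding gene on chromosome 14 and 2.52 kb from Wwox. Just outside it were 3 regions at 2.49 kb, near Tbpl1, in Selenov and in Spata22.

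A group of 242 regions stood apart by their outline, and its values are given before the comparisons because they touch several of them. The limit on edges was set after the outlines were seen. In these regions the first and the last base differed by at most 50 bp between all the lists that held the region, with a median difference of 10 bp. Their median length was 245 bp, and 196 of them were at most 300 bp long, as the plot of region lengths shows. Of the whole set, 277 regions (12.2%) were that short, against 4.63% of all regions in at least 2 lists. The 242 regions with agreeing edges made up 10.6% of the distal regions (interval 9.39 to 11.96), against 4.3% of all regions in at least 2 lists. In the other 2036 regions the median difference between lists was 443 bp and the median length 872 bp. Of the 279 regions in all 4 lists, 96 belonged to this group.

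**Figure D1:**
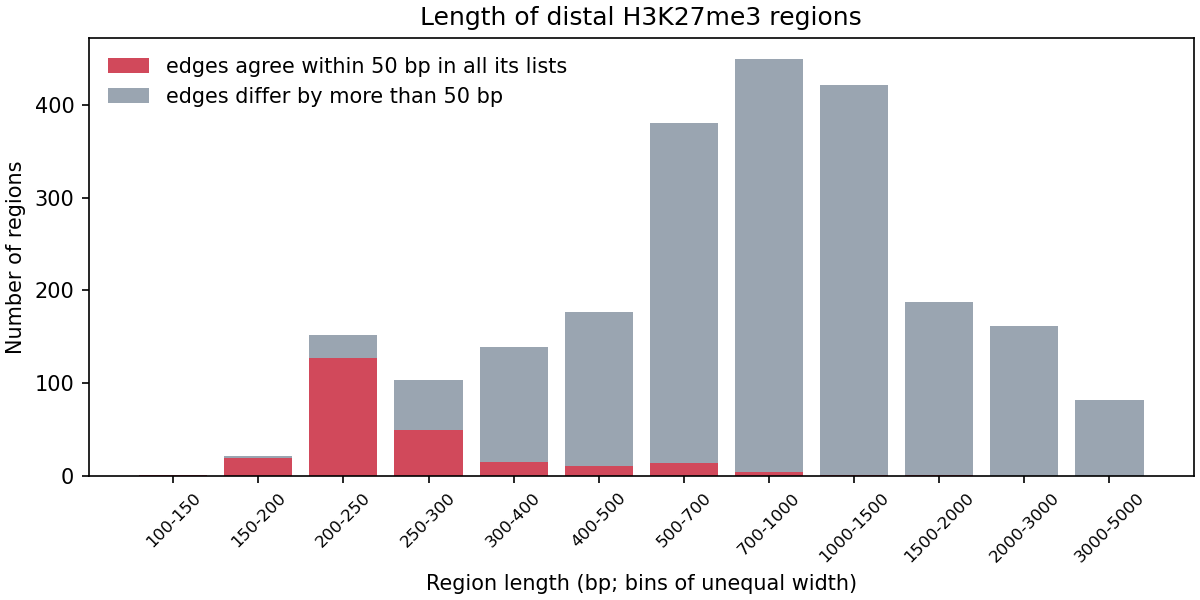
Number of distal H3K27me3 regions (vertical axis) by region length in bp (horizontal axis, bins of unequal width), split by whether the region's edges agreed within 50 bp in all lists that held it. Regions with agreeing edges peak at 200 to 250 bp (127 regions), the others at 700 to 1000 bp (446 regions).

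About as many of these regions had H3K27ac as lacked it, and where it was present its peak mostly had the same outline. Of the 242 regions, 124 overlapped an H3K27ac peak of any list, 118 of them one of arid4b-delta endoderm, 96 of arid4b-delta mesoderm, 40 of WT mesoderm and 22 of WT endoderm. Both edges of the H3K27ac peak lay within 50 bp of the region's edges in 91 of the 118, 77 of the 96, 34 of the 40 and 14 of the 22. Most of these were among the 96 regions in all 4 H3K27me3 lists, of which 81 had H3K27ac and 71 had a coinciding peak in arid4b-delta endoderm. Of all regions in at least 2 lists 0.595% overlapped an annotated miRNA, and of the distal set 1 region did. That region (chr9:110281188-110281444, 257 bp, all 4 lists) had edges within 27 bp and no H3K27ac peak in any list. Its H3K27me3 folds were 3.12 in WT endoderm, 4.02 in arid4b-delta endoderm, 1.79 in WT mesoderm and 2.29 in arid4b-delta mesoderm. It holds mmu-miR-6236, whose mature sequence is shown with its seed, bases 2 to 8, in capitals (RefSeq, GRCm38.p6, chr9:110281353-110281371, plus strand).
mmu-miR-6236: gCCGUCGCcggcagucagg

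The first comparison asks how the regions were shared among the lists. Most were in few of them, with 1521 (66.8%) in 2 lists, 478 (21.0%) in 3 and 279 (12.2%) in all 4. Over all regions in at least 2 lists, 38.3% were in all 4, and for short regions near a gene end with H3K4me3 the share was 48.9% (interval 46.8 to 51.0). For short regions near a gene end without H3K4me3 it was 12.7% (10.1 to 15.6), an interval that holds the 12.2% of the distal ones. A further 14536 regions met the other conditions but were in a single list and are not part of the set.

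The largest sharing class was arid4b-delta of both lineages. It held 625 regions (27.4%, against 18.3% of all regions in at least 2 lists), followed by endoderm of both genotypes with 488 (21.4% against 9.96%), all lists but WT mesoderm with 337 (14.8% against 19.5%) and all 4 with 279. WT of both lineages held 85 regions (3.73% against 1.77%), and mesoderm of both genotypes held 33 (1.45% against 1.13%). The crossed pairs, which share neither genotype nor lineage, held 154 (arid4b-delta endoderm with WT mesoderm) and 136 (WT endoderm with arid4b-delta mesoderm). More regions thus lay in each crossed pair than in WT of both lineages or mesoderm of both genotypes. By list, 2003 of the regions (87.9%) were in arid4b-delta endoderm, 1494 (65.6%) in arid4b-delta mesoderm, 1403 (61.6%) in WT endoderm and 692 (30.4%) in WT mesoderm, which follows the order of list lengths except for arid4b-delta mesoderm and WT endoderm.

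**Figure D2:**
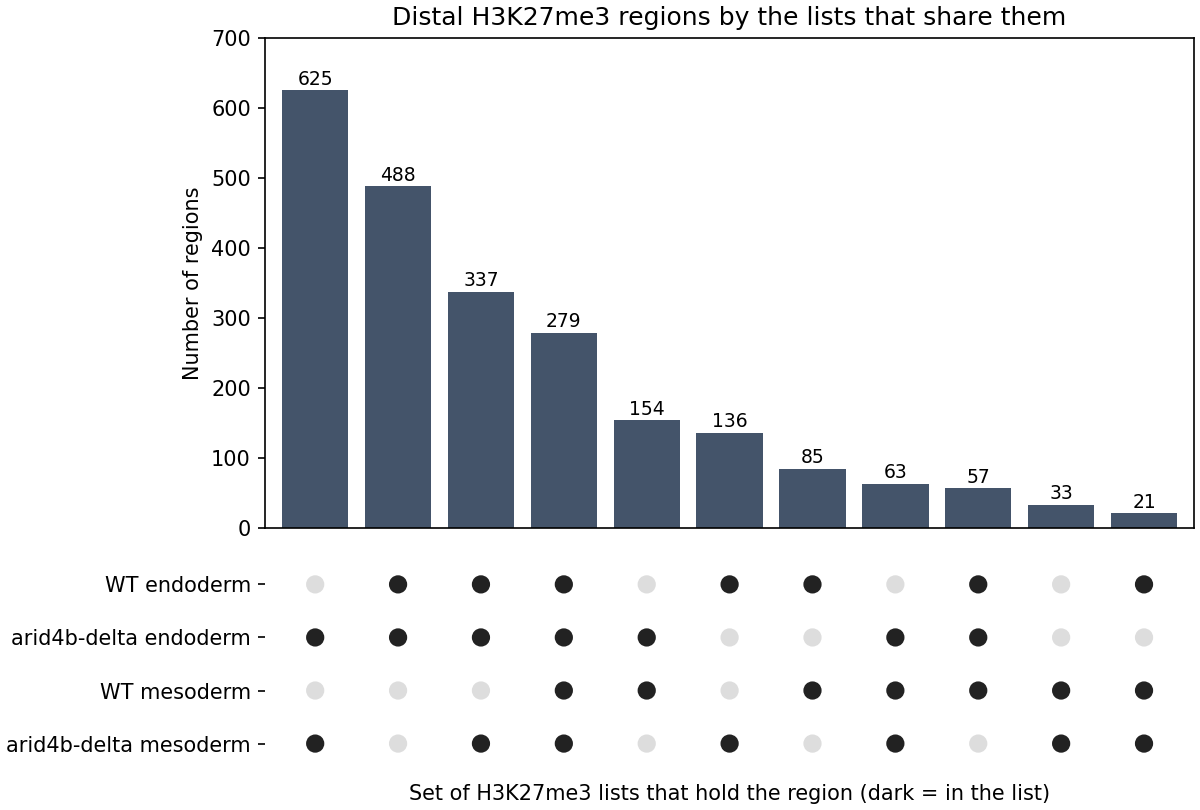
Number of distal H3K27me3 regions (vertical axis) for each of the 11 sets of lists that can share a region, with the lists of each set marked by dark dots below its bar. The 625 regions of arid4b-delta in both lineages and the 488 of endoderm in both genotypes are the tallest bars, and the 21 regions of all lists but arid4b-delta endoderm the shortest.

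Between genotypes, regions that differed were mostly those of arid4b-delta, in each lineage. The 2 lineages are not separate results here. The same 625 regions, in both arid4b-delta lists and no WT list, count in both, and the rule admits no region of a single list. In endoderm 842 regions were found in arid4b-delta alone and 242 in WT alone, which is 37.0% and 10.6% of the set against 23.6% and 6.21% of all regions in at least 2 lists. The arid4b-delta share of the differing regions was 77.7% (interval 75.1 to 80.1), and for all regions in at least 2 lists it was 79.2%. In mesoderm 1098 were found in arid4b-delta alone and 296 in WT alone, 48.2% and 13.0% of the set against 41.4% and 6.23% of all. The arid4b-delta share was 78.8% (76.5 to 80.9), against 86.9% (85.7 to 88.1) of all regions in at least 2 lists and 95.2% (93.7 to 96.4) near gene ends with H3K4me3. The arid4b-delta list was the longer in both lineages. With each list cut to the length of the shortest, the arid4b-delta share was 50.2% in endoderm and 64.8% in mesoderm, so at equal list length the endoderm excess was not seen (interval 46.0 to 54.3).

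Overlap between genotypes was partial. The shares below are raised by the rule, since the 14536 regions in a single list are left out. All sets compared here were likewise limited to regions in at least 2 lists. Of the distal regions of WT endoderm, 82.8% were also in arid4b-delta endoderm, and 58.0% of those of arid4b-delta endoderm were in WT endoderm. In mesoderm 57.2% of the WT regions were in arid4b-delta and 26.5% of the arid4b-delta regions in WT. Over all regions in at least 2 lists the same 4 shares were 91.7%, 74.5%, 87.2% and 50.6%. For short regions near a gene end they were 95.3%, 83.9%, 96.2% and 56.0% with H3K4me3, and 84.9%, 50.8%, 67.1% and 20.8% without it. The distal regions were thus closer to the regions near gene ends that lacked H3K4me3 than to those that had it.

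Between lineages, both genotypes had more distal regions in endoderm only. Here too the 2 genotypes are not separate results, since the same 488 regions, in both endoderm lists and no mesoderm list, count in both. In WT 961 were in endoderm only and 250 in mesoderm only, 42.2% and 11.0% of the set against 33.1% and 6.45% of all regions in at least 2 lists. The endoderm share of the differing regions was 79.4% (interval 77.0 to 81.6), below the 83.7% (82.3 to 85.1) of all. In arid4b-delta 699 were in endoderm only and 190 in mesoderm only, 30.7% and 8.34% of the set against 14.4% and 5.57% of all. The endoderm share was 78.6% (75.8 to 81.3), here above the 72.1% (69.7 to 74.5) of all. With lists cut to equal length it was 61.5% in WT and 45.3% in arid4b-delta, which turned the direction in arid4b-delta.

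Peaks at the distal regions were of middling rank within their lists. The median fold enrichment was 2.08 in WT endoderm, 2.001 in arid4b-delta endoderm, 1.92 in WT mesoderm and 2.29 in arid4b-delta mesoderm, at percentiles 46.9, 48.3, 43.8 and 48.1 of those lists. The corresponding percentiles over all regions in at least 2 lists were 53.8, 52.8, 55.0 and 52.3. Many peaks were weak, with a -log10 q below 1.3 in 44.3%, 40.2%, 69.7% and 29.7% of the regions of each list in the same order, against 36.8%, 33.8%, 58.1% and 22.3% of all regions in at least 2 lists. Requiring -log10 q of at least 1.3 left 1069 regions. The highest folds in the 4 lists were 9.20, 11.0, 5.80 and 11.0.

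The 10 regions of all 4 lists with the highest mean percentile were in or near a neurotransmitter receptor, a PRC2 subunit, a Wnt feedback gene and others. The first lay in Oprd1, the delta opioid receptor gene (gene 18386, chr4:132113336-132114110, 3.15 kb from its nearest end). Its fold enrichment was 3.595 in WT endoderm, 3.62 in arid4b-delta endoderm, 3.78 in WT mesoderm and 4.12 in arid4b-delta mesoderm, at percentiles 89.2, 86.3, 98.8 and 89.6 of those lists. The second lay in Cmss1 (gene 66497, chr16:57391121-57391738), with 3.204, 3.61, 2.62 and 4.96 in the same order. The third, 8.81 kb from H2bl1 (gene 69382, chr13:98993372-98995189), had 3.04, 3.56, 2.65 and 4.26 and held the start of an unnamed long noncoding RNA. These 3 were in the upper 20% of every list by fold, as the plot of percentiles shows.

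Jarid2, which encodes a PRC2 accessory subunit, carried a region of 586 bp inside the gene (gene 16468, chr13:44869512-44870097), 51.5 kb from its nearest end, with folds of 3.05, 2.70, 3.13 and 3.17. Axin2, a feedback inhibitor of Wnt signalling, lay 60.8 kb from a region of 413 bp (gene 12006, chr11:109011625-109012037) with folds of 2.37, 4.53, 3.25 and 2.80. Dlgap2, a postsynaptic scaffold gene, held a region 211 kb from its nearest end (gene 244310, chr8:14306726-14307394) with folds of 3.48, 3.63, 2.34 and 3.13. The remaining 4 lay 31.5 kb from Nln, a peptidase gene, 8.52 kb from Cerk, the ceramide kinase gene, 35.6 kb from Qdpr, the dihydropteridine reductase gene, and 61.6 kb from Hrh1, the histamine H1 receptor gene. The region near Cerk had folds of 4.47, 2.78, 2.14 and 6.15, at percentiles 95.7, 73.1, 66.6 and 98.6 of the 4 lists. Among the 10, only the regions near Qdpr and Hrh1 and that in Dlgap2 overlapped H3K27ac in any list.

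**Figure D3:**
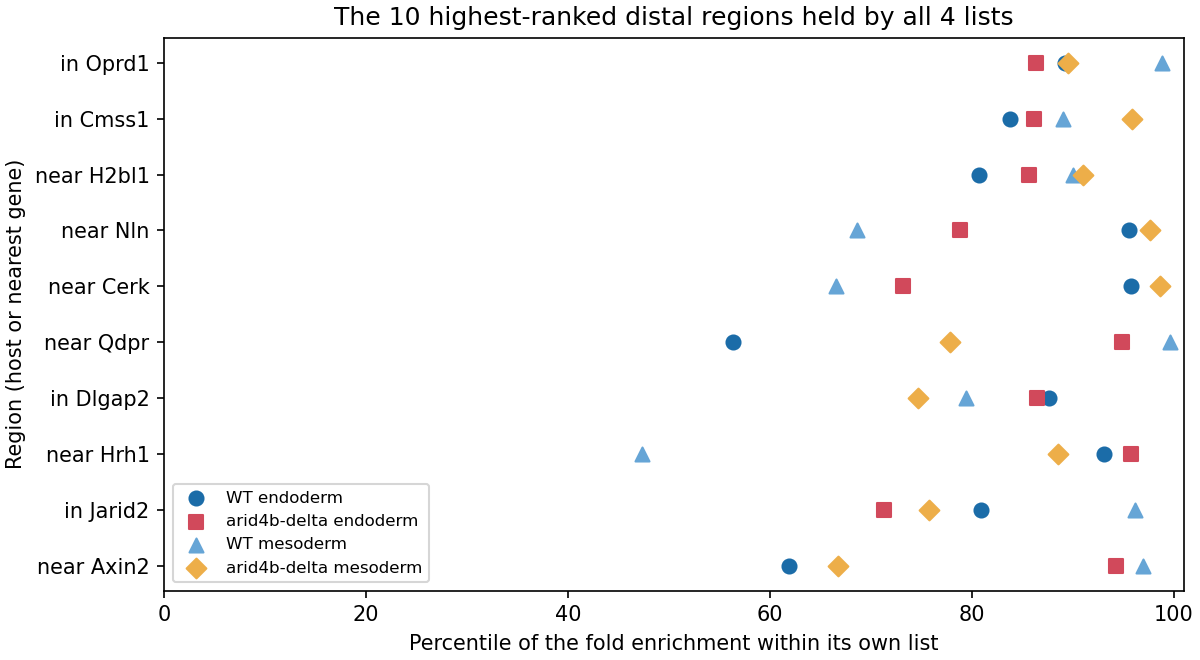
The 10 distal regions of all 4 lists with the highest mean rank (vertical axis, by host or nearest gene) and the percentile of each region's H3K27me3 fold enrichment within its own list (horizontal axis), with 1 marker per library. The region in Oprd1 lies above 86 in all 4 libraries, while the region near Hrh1 is at 47.3 in WT mesoderm and above 88 in the others.

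Regions of a single pair of lists included some with high folds. In arid4b-delta of both lineages the highest ranked were in Mroh8 (gene 629499, folds 4.75 in endoderm and 7.92 in mesoderm), in Dlgap2 (5.10 and 5.30), 299 kb from Flrt2, a guidance receptor gene (gene 399558, 4.37 and 6.27), and in Rtn4rl2, a Nogo receptor family gene (gene 269295, 6.29 and 4.44). None of these 4 overlapped H3K27ac. Dlgap2 thus held a region of all 4 lists and another of both arid4b-delta lists only. In WT of both lineages they were 71.0 kb from Gadd45g, a stress-response gene (gene 23882, 5.23 in endoderm and 3.28 in mesoderm), 210 kb from Manea, a mannosidase gene (gene 242362, 4.77 and 2.51), 406 kb from Isl1, a LIM homeobox gene (gene 16392, 2.74 and 2.85), and 20.5 kb from the vomeronasal receptor gene Vmn1r253 (2.84 and 2.65). Among these 4, the region near Isl1 overlapped an H3K27ac peak, of arid4b-delta endoderm.

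In endoderm of both genotypes the highest ranked was in Wnt9b, a Wnt ligand gene (gene 22412, chr11:103754222-103754711), with folds of 4.72 in WT and 11.0 in arid4b-delta. It was followed by regions in Garem1 (4.33 and 7.77), 9.99 kb from the olfactory receptor gene Olfr1168 (3.82 and 6.25) and 678 kb from Dsc3, a desmosomal cadherin gene (4.59 and 4.12). The last 3 each overlapped an H3K27ac peak of arid4b-delta endoderm and of no other list. In mesoderm of both genotypes they were 346 kb from Trim52 (2.28 in WT and 4.72 in arid4b-delta), in Lpgat1 (2.30 and 2.69), 3.28 kb from C1ql1, a secreted synaptic protein gene (2.07 and 2.76), and in Rgma, a repulsive guidance gene (2.75 and 1.93), with no H3K27ac peak at any of these 4.

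Most distal regions lay between genes. Of the 2278, 701 (30.8%, interval 28.9 to 32.7) overlapped the span of a protein-coding gene, against 65.8% of all regions in at least 2 lists, a share that includes regions over gene ends, which the rule removes. In the distal regions with H3K4me3 it was 53.7% (50.1 to 57.3). The median distance to the nearest coding gene end was 30.0 kb (quartiles 9.39 and 104), against 23.2 kb (7.88 and 61.2) for distal regions with H3K4me3. More than 100000 bp from any gene end were 585 regions (25.7%, 23.9 to 27.5), against 10.7% of all regions in at least 2 lists and 16.5% (14.0 to 19.3) of the distal regions with H3K4me3. More than 500000 bp away were 125 (5.49% against 2.1% of all). The farthest lay 2140 kb from Cntnap5b (chr1:102628137-102628395, 3 lists) and 2100 kb and 1880 kb from the protocadherin gene Pcdh9 (chr14:90911108-90911352 and chr14:91129321-91130056). The regions of 259 and 245 bp among them had edges within 12 and 2 bp, and the third is 736 bp long.

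Position was also compared between sharing classes. Of the regions in arid4b-delta of both lineages only, 36.5% (interval 32.7 to 40.4) were inside genes, with a median of 24.5 kb to a gene end. In endoderm of both genotypes only, 25.6% (21.8 to 29.7) were inside genes, with a median of 35.9 kb. Regions of all lists but WT mesoderm lay at a median of 21.5 kb, and were the longest class with a median of 1369 bp. Genes that held the most regions were Asic2, an acid-sensing channel gene of 1090 kb, with 6, then Lmx1b, a LIM homeobox gene of 80.2 kb, Pappa and Ulk4 with 5 each. Kcnq1, Nfix (96.5 kb), Trp73 (83.6 kb) and Zfp993 held 4 each. No count over all regions in at least 2 lists is given for these genes. Of these, Kcnq1 belongs to an imprinted domain.

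Other H3K27me3 regions often lay close by, as they did for H3K27me3 regions in general. The nearest H3K27me3 region of any kind was a median of 2.17 kb away, and 1366 (59.96%) had one within 5000 bp, against 57.9% of all regions in at least 2 lists. For the regions with agreeing edges the median was 42.1 kb. Within 20000 bp of a region of at least 5000 bp lay 312 (13.7%), and within 20000 bp of a region with H3K4me3 lay 550 (24.1%, interval 22.4 to 26.0). The same shares of all regions in at least 2 lists were 21.7% and 69.6%, where regions of those kinds count themselves. In short regions near a gene end without H3K4me3 they were 12.9% (10.3 to 15.8) and 44.0% (39.9 to 48.1). The first share was 9.49% (7.52 to 11.8) in distal regions with H3K4me3 and 3.54% (2.82 to 4.38) near gene ends with H3K4me3, both below the 13.7% (12.3 to 15.2) of the distal regions without it. The nearest H3K4me3 peak of any list was a median of 34.1 kb away.

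Some of the genome's multicopy loci held many of the regions. Of the 1190 windows of 1000000 bp with any distal region, 725 had 1, and 7 windows had at least 20, together 245 regions (10.8%). The same windows held 333 (4.83%) of all regions in at least 2 lists. These windows were singled out after their counts were seen. On chromosome 8, 114 of the 136 regions in at least 2 lists were distal ones and lay between 19698432 and 20833940. The 2 windows there also hold 13 beta-defensin genes, which encode antimicrobial peptides. Most of the regions were not over these genes: 86 lay in the window that starts at 20000001. Its only named coding genes are Defb33 and AY761185. Of the 114 regions, 80 were in WT endoderm, 102 in arid4b-delta endoderm, 70 in WT mesoderm and 61 in arid4b-delta mesoderm, and 30 were in all 4. They were at median percentiles 44.6, 56.5, 28.4 and 43.8 of their lists. On chromosome 14, 106 of 172 were, and lay between 3000210 and 6764113, where 60 of 61 coding genes have predicted symbols only. There 62, 83, 48 and 43 regions were in the 4 lists in the same order, 2 were in all 4, and percentiles were low at 21.5, 24.5, 27.9 and 17.7. Near-identical copies share reads, so the placement of peaks within these loci is uncertain.

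On chromosome 7, 25 regions lay between 59689193 and 59895546, between Ube3a and Snrpn in the imprinted Prader-Willi and Angelman domain, a tandem array of small nucleolar RNA genes expressed from the paternal allele. All 25 H3K27me3 regions of that window in at least 2 lists were distal regions without H3K4me3, and 18 of them overlapped an annotated small nucleolar RNA, among them Snord116l16, Snord116l8 and Snord116l3. These 18 are 0.790% of the set (against 0.29% of all regions in at least 2 lists), and no other distal region overlapped a small nucleolar RNA. As at the other multicopy loci, the placement of peaks within this tandem array is uncertain. Of the 25, 21 were in WT endoderm, 20 in arid4b-delta endoderm, 11 in WT mesoderm and 10 in arid4b-delta mesoderm, at median percentiles 88.7, 69.4, 53.3 and 72.7 of those lists. H3K27ac peaks of arid4b-delta endoderm overlapped 16 of them and those of arid4b-delta mesoderm 2, while neither WT list had any there. Over all regions in at least 2 lists the shares were 14.9% and 9.48% for these arid4b-delta lists. They were 3.57% for WT endoderm and 6.6% for WT mesoderm. The 4 H3K27ac lists held 35884, 22747, 14216 and 12496 peaks in that order, and a difference between genotypes was not tested.

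By chromosome, 2 of these loci show in the distribution of the whole set. Chromosome 8 held 242 regions (10.6%, against 7.85% of all regions in at least 2 lists), chromosome 14 held 196 (8.6% against 5.91%) and the X 97 (4.26% against 2.96%). The Y held 25 of the regions, which were 83.3% of the 30 there in at least 2 lists. On chromosome 19 this share was 22.2%. The outermost windows with regions on the sex chromosomes held 8 each, on the X between 170017332 and 170863670 and on the Y between 90718564 and 90826888.

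**Figure D4:**
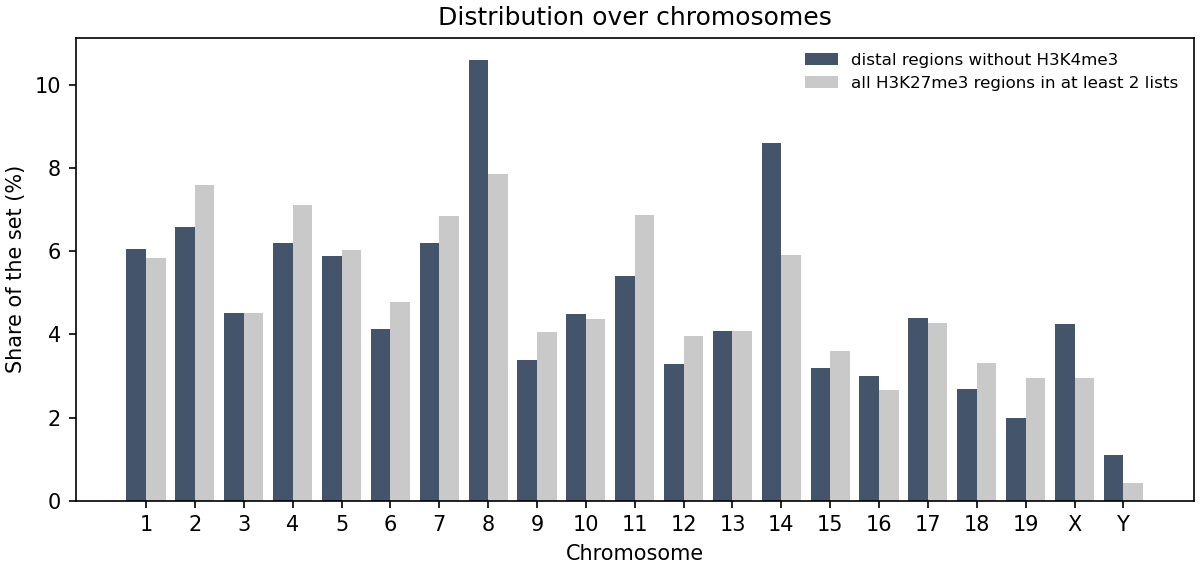
Share of the distal H3K27me3 regions and of all H3K27me3 regions in at least 2 lists (vertical axis, percent of each set) on each chromosome (horizontal axis). The gap in favour of the distal regions is widest on chromosomes 8 (10.6% against 7.85%) and 14 (8.6% against 5.91%), and the Y has 1.1% against 0.435%.

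H3K27ac took no part in choosing the regions. Of the 2278, 701 (30.8%, interval 28.9 to 32.7) overlapped an H3K27ac peak in at least 1 of the 4 lists, against 19.9% of all regions in at least 2 lists, 25.4% (22.4 to 28.6) of distal regions with H3K4me3 and 11.3% (8.89 to 14.2) of short regions near a gene end without H3K4me3. The count equals that of regions inside genes by coincidence, since 168 regions were both. Most overlaps came from the arid4b-delta endoderm list, which with 35884 peaks was the longest H3K27ac list. It had peaks at 640 regions (28.1% against 14.9% of all), arid4b-delta mesoderm at 226 (9.92% against 9.48%), WT mesoderm at 87 (3.82% against 6.6%) and WT endoderm at 31 (1.36% against 3.57%). Without the arid4b-delta endoderm list, 255 regions (11.2%) overlapped H3K27ac, against 12.3% of all regions in at least 2 lists, so the excess over all regions rested on that library. The order against distal regions with H3K4me3 then turned, as their share was 22.7% (19.8 to 25.8). In short regions near a gene end without H3K4me3 it was 5.41% (3.73 to 7.56), still below the distal regions.

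The H3K27ac peaks themselves ranked below the middle of their lists, moderately in arid4b-delta endoderm and near the bottom in the other libraries. Their median fold enrichment was 5.51 in arid4b-delta endoderm (percentile 34.3 of that list), 4.52 in arid4b-delta mesoderm (percentile 4.70), 2.64 in WT mesoderm (1.06) and 2.19 in WT endoderm (0.706). Within a library, H3K27ac was not less common where that library also had H3K27me3. In arid4b-delta endoderm 28.8% (interval 26.8 to 30.8) of the regions with H3K27me3 in that library overlapped its H3K27ac, and 23.3% (18.4 to 28.7) of those without. In WT mesoderm the shares were 9.83% (7.71 to 12.3) and 1.20% (0.723 to 1.86). They were 11.3% and 7.27% in arid4b-delta mesoderm, and 2.07% and 0.229% in WT endoderm. Edges agreed within 50 bp at 40 of the 87 regions with H3K27ac in WT mesoderm and 22 of the 31 in WT endoderm. In arid4b-delta mesoderm this held for 96 of 226 and in arid4b-delta endoderm for 118 of 640. The shares within a library were not computed for all regions in at least 2 lists.

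By number of lists, H3K27ac was most frequent at regions in all 4, while regions in 3 and in 2 had similar shares. It was present at 169 of the 279 regions in all 4 lists (60.6%, interval 54.6 to 66.3), 125 of 478 in 3 lists (26.2%, 22.3 to 30.3) and 407 of 1521 in 2 lists (26.8%, 24.5 to 29.1). Without the arid4b-delta endoderm H3K27ac list these shares were 42.7%, 9.41% and 5.98%. These shares were not computed for all regions in at least 2 lists. The higher share in all 4 lists is thus not shown to be particular to the distal regions. Among regions in all 4 lists H3K27ac was at 84.4% (75.5 to 91.0) of those with agreeing edges and 48.1% (40.7 to 55.6) of the others. Between pairs, 16.0% of the regions in arid4b-delta of both lineages had H3K27ac, against 36.9% in endoderm of both genotypes. In the crossed pair of arid4b-delta endoderm with WT mesoderm it was 44.2%. Among sets of 3 lists it ranged from 18.4% (all but WT mesoderm) to 61.9% of 21 regions (all but arid4b-delta endoderm). The 5 regions with H3K27ac in all 4 lists and the highest H3K27me3 rank were in Greb1, an oestrogen-responsive gene, 90.9 kb from Nlrp4g, in Cdk5rap2, a centrosomal protein gene, 560.0 kb from the beta-defensin gene Defb33, and 261 kb from Zfp326. Genes with predicted symbols lay closer to the regions assigned to Nlrp4g (9.95 kb) and Defb33 (5.47 kb). Of these, the regions in Greb1 (258 bp), in Cdk5rap2 (268 bp) and near Zfp326 (248 bp) were short with edges that differed by at most 10 bp, and that near Nlrp4g was 1662 bp with edges within 42 bp.

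**Figure D5:**
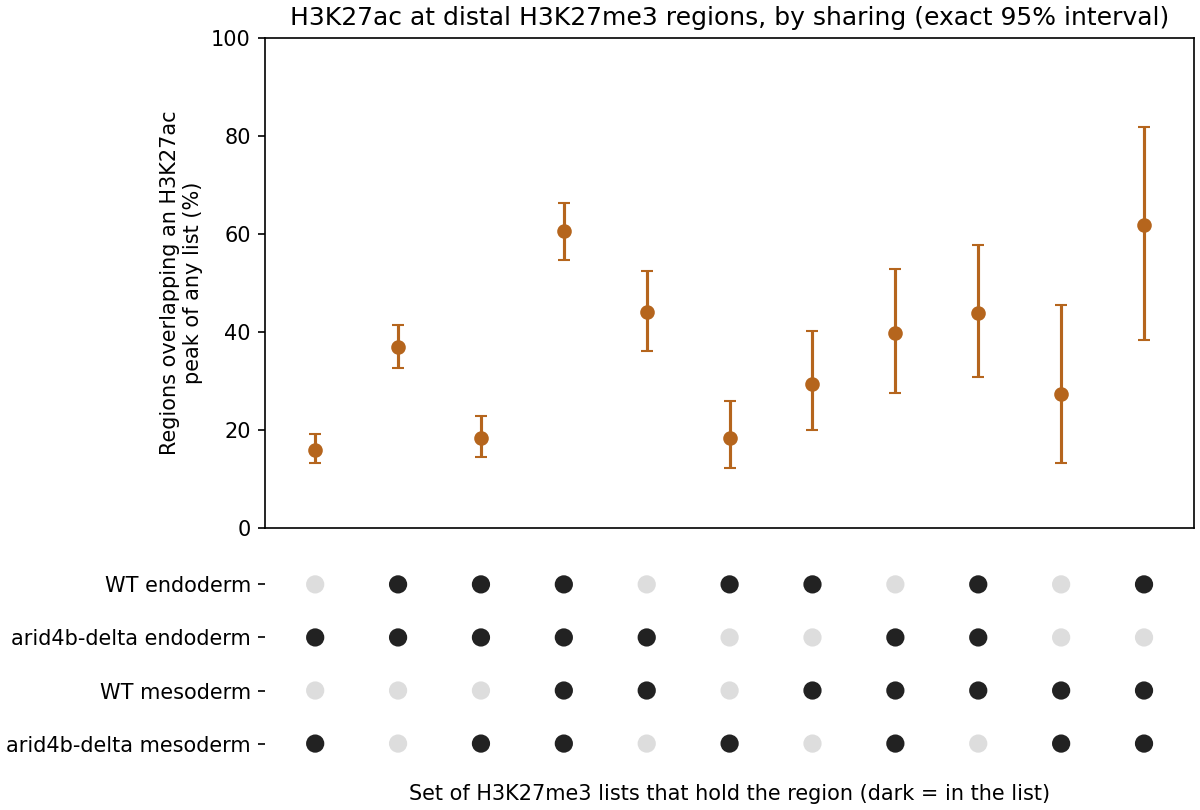
Share of distal H3K27me3 regions that overlap an H3K27ac peak of any list (vertical axis, percent, with exact 95% intervals over regions) for each set of H3K27me3 lists that share them, marked by dark dots. Regions in all 4 lists are at 60.6% and those of arid4b-delta in both lineages at 16.0%.

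Developmental regulators neighboured the regions at about the rate seen for H3K27me3 as a whole. Each region was assigned to the gene that holds it or else to the nearest named coding gene. Of 91 homeobox genes, 29 had at least 1 region, with 50 regions in all (2.19% of the set against 2.15% of all regions in at least 2 lists). Lmx1b had 7 and Irx5, an Iroquois homeobox gene, 5. Of 104 T-box, Sox, Pax, Fox, Gata and basic helix-loop-helix factors, 43 had 60 regions (2.63% against 2.80%), with 4 at Tfap2c. Of 79 signalling genes of the Wnt, BMP, FGF, Nodal and Hedgehog pathways, 17 had 26 regions (1.14% against 1.47%), with 3 each at Bmp7 and the Wnt receptor gene Ror2. In these 3 lists 64.0%, 65.0% and 65.4% of the regions were in both arid4b-delta lists, against 57.2% of the whole set. In both WT lists were 14.0%, 13.3% and 11.5%, against 19.4%. Over all regions in at least 2 lists, 78.2% were in both arid4b-delta lists and 42.2% in both WT lists. The differences from the whole set were not tested.

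Neuronal genes made up 2 further lists. Of 70 axon guidance and neuronal adhesion genes, 34 had 53 regions (2.33% against 1.83% of all), and of 64 ion channel and synaptic receptor genes, 24 had 31 (1.36% against 1.38%). H3K27ac was at 25 of the 53 (47.2%) and 15 of the 31 (48.4%), against 30.8% of the whole set. It was at 5 of the 50 regions at homeobox genes, 11 of the 60 (18.3%) at the other developmental factors and 6 of the 26 (23.1%) at signalling genes. Median lengths were 633 and 650 bp in the neuronal lists and 1130, 1007 and 1069 bp in the others, against 801 bp in the whole set. The differences between lists were not tested.

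The listed genes with regions in all 4 lists showed both kinds of outline. The region 25.9 kb from Tfap2c, a trophoblast and germ cell factor gene (chr2:172517083-172519823, 2741 bp), had folds of 3.45 in WT endoderm, 2.58 in arid4b-delta endoderm, 1.93 in WT mesoderm and 2.83 in arid4b-delta mesoderm, with edges up to 2120 bp apart. The region 3.62 kb from Tbx15, a T-box gene of the skeleton (chr3:99234415-99236729, 2315 bp), had 3.23, 2.63, 1.64 and 2.31. Neither had H3K27ac in any list. By contrast, short regions with edges within 8 bp lay 231 kb from the ephrin receptor gene Epha3 (244 bp, folds 2.46, 2.29, 1.98 and 6.85), in the potassium channel gene Kcnh1 (248 bp), 105 kb from Isl1 (249 bp) and in the lipoprotein receptor gene Lrp1b (244 bp). All 4 of these overlapped H3K27ac in both arid4b-delta lists. Longer regions in all 4 lists were also found in Ror2 (817 bp, with H3K27ac in 3 lists) and Csmd2 (994 bp). Others lay 261 kb from Sox1 (4209 bp), 40.9 kb from Chrm3 (775 bp), 372 kb from Csmd1 (418 bp) and 267 kb from Cntnap2 (451 bp). A gene with a predicted symbol lay closer to the region assigned to Sox1 (142 kb). Of these regions, only that in Ror2 had H3K27ac in any list.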

How the data were processed

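ChIP-seq peak lists of H3K4me3, H3K27me3 and H3K27ac were used, 12 in all, 1 per mark, lineage and genotype; the 4 input samples were not analysed here. Bowtie2, Picard, MACS2 and build mm10 are named in the submitters' processing notes, without versions or settings. Peak names in the deposited files say that duplicates were removed. Peaks were called per library. Each deposited list gives a score, a fold enrichment (a ratio), -log10 p and -log10 q per peak from the authors' caller, and the narrow lists another unit, the authors' summit offset in bp. Scores, -log10 p and summits were not used. A fold is relative to the background of its own library, so folds were ranked within a list only.

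Peaks on chromosomes 1 to 19, X and Y were kept (0.243% of peaks lay elsewhere), and touching or overlapping H3K27me3 peaks were merged with pandas 2.3.3 under Python 3.11.15. Overlap means at least 1 bp. Gene ends came from 21887 protein-coding genes of RefSeq GRCm38.p6 (mm10), whose table gives no exons, so exonic and intronic positions are not given. Interval code was tested on simulated data. Intervals used scipy 1.17.1. The members and lists were chosen with earlier results of these data known. All entries of the symbol lists but 1 of the homeobox genes matched the gene table.

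Named regions were taken by rule: of regions in all 4 lists the 10 with the highest mean within-list percentile of fold, 4 for each genotype or lineage pair, 5 by number of H3K27ac lists, the 3 farthest from gene ends, 12 at listed genes by number of lists and rank, and 3 on each side of the length and distance limits. Genes with predicted symbols were replaced by the nearest named one. Regions at promoter windows, the miRNA, the multicopy loci, and the genes with most regions were chosen after their values were seen.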

Additional observations from a re-analysis of the deposited data

How the results depend on the processing

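No paired analysis was possible because each group has 1 library and no replicate numbers. The 7 results were recomputed under 9 other settings and under 4 more chosen after seeing the data. Of the 83 values, 54 stayed within the interval or within 1.5 times the count. With each H3K27me3 list cut to the length of the shortest by fold, 972 regions were left. The arid4b-delta share of regions differing between genotypes was then 50.2% in endoderm and 64.8% in mesoderm, the endoderm share of those differing between lineages was 61.5% in WT and turned to 45.3% in arid4b-delta, 32.8% of regions were inside genes and 36.5% had H3K27ac. With the upper 50% of each list, 815 regions were left, with shares of 70.9% (genotypes, endoderm), 76.3% (lineages, WT), 68.8% (lineages, arid4b-delta) and 33.9% with H3K27ac. With -log10 q of at least 1.3, 1069 were left, with 73.7% and 89.8% (genotypes, endoderm and mesoderm), 84.9% and 62.8% (lineages, WT and arid4b-delta) and 33.3% with H3K27ac. Where a list's peaks had to cover at least 50% of a region, 1291 were left, with 80.3% (genotypes, endoderm) and 34.0% with H3K27ac. Merging peaks within 1000 bp gave 72.5% (genotypes, mesoderm), 82.4% (lineages, arid4b-delta) and 35.7% with H3K27ac. Without the WT mesoderm list the endoderm genotype share was 81.4%. Without the windows of 20 or more regions it was 82.0% between genotypes in mesoderm and 81.8% between lineages in WT. H3K27ac was at 28.3% without regions whose edges agreed within 50 bp and at 11.2% without the arid4b-delta endoderm H3K27ac list. Apart from cuts that leave fewer peaks, the cause was not tested. Depth cannot be read from peak lists, so a region missing from a list is not shown to lack the mark.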

Other observations

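Receptor and zinc finger gene families were also found near distal regions. Vomeronasal receptor genes were the nearest or host gene of 24 regions (1.05%, against 0.465% of all H3K27me3 regions in at least 2 lists), spread over 23 genes. Olfactory receptor genes were so for 19 (0.834% against 0.363%). Vomeronasal and olfactory receptor genes are 1.62% and 5.07% of coding genes. The comparison set includes regions at gene ends, which the rule removes. H3K27ac of any list overlapped 11 of the vomeronasal and 5 of the olfactory regions. Zfp genes had 48 regions (2.11% against 1.83%), with 6 at Zfp868 and 4 each at Zfp980 and Zfp993, and cadherin and protocadherin genes had 29 (1.27% against 1.36%), with 8 at Pcdh7 and none in all 4 lists. Annotated pseudogenes overlapped 89 regions (3.91%, interval 3.15 to 4.79, against 2.41% of all regions in at least 2 lists), and long noncoding RNA genes overlapped 277 (12.2% against 16.3%).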
